A study of Mus musculus with 22 samples.

Results

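The microRNAs (miRNAs) described here are the 204 mouse 3p arms in the run of names from miR-6896-3p to miR-7119-3p, most of them regarded as mirtrons. They were taken by name alone from the annotation on the array, as every mouse miRNA with a number in that range and the ending -3p. They make up 10.8% of the 1881 miRNAs on the array and were read by 424 probes, with 188 members on 2 probes and 16 on 3. Total RNA was hybridised to 22 one-colour arrays. The mice, all male and 8 weeks old, were given 0 Gy or 10 Gy of X-rays, at 1 Gy per minute. Small intestine and feces had 4 arrays at each dose, and serum had 2 at 0 Gy and 4 at 10 Gy. The strain, any genotype and the time between irradiation and sampling are not given in the sources used here. The labels do not state whether each array stands for another animal. The p-values therefore describe sample-to-sample spread only, which may be technical.

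A mirtron is a short intron that, once spliced out and debranched, folds into a hairpin that Dicer can cut without the nuclear Drosha step that most miRNA precursors need. Its ends are the splice sites of the intron, so the 3p arm comes from the pyrimidine-rich tract and the AG at the 3′ splice site. The 5p arm comes from the region after the 5′ splice site, which is often rich in G. A miRNA guides Argonaute proteins to messenger RNAs mainly through its seed, bases 2 to 8 of the mature strand. Mirtrons are in general less abundant than the well-known miRNA families, and miRNAs in feces and serum are known to come both from shed or lysed cells and from vesicles or protein complexes.

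RefSeq (GRCm38.p6) held a mature sequence for 180 of the 204 members. The members were rich in pyrimidines: C made up 40.1% and U 31.7% of their bases, against 26.9% and 26.7% in the 495 other mouse 3p arms with a sequence. They ended in AG in 77.8% of cases, against 10.5% of those other 3p arms and 6.63% of the 181 5p arms of the same number range. The 5p arms held 44.2% G. Of the 174 members whose hairpin was placed, 173 lay within the span of a protein-coding gene, 150 of them within one known to be on the same strand. In 129 of the 174 the 3p arm ended at the last base of the hairpin. The annotated hairpin itself began with GU and ended with AG in 20 of 176 cases (11.4%), against 1.21% of 829 other mouse hairpins. The annotation used gives gene spans only, so exons and introns were not assigned.

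The sequences that follow are those on which the results turn, with the seed in capitals. The first 9 gave a signal in feces and carry an unbroken run of at least 4 C.
miR-6937-3p: uCACAGGUucccccuugcacuag
miR-7045-3p: uCUCCCCCcucccccgcacag
miR-7115-3p: aCUUGGUCcccugcccccacag
miR-7046-3p: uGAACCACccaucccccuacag
miR-6897-3p: cGGUCUGUguucuucccccag
miR-7117-3p: uGUCCUUCucuuucccccag
miR-7022-3p: aCAAGCCUgaccucugccccca
miR-6943-3p: cUGCUUCCauaccccuacccag
miR-7063-3p: uGCUCUCUgccccucuuaag
The next 4 are printed for other reasons: miR-6929-3p, miR-7036b-3p and miR-7028-3p varied between the feces arrays in ways of their own, and miR-7082-3p was seen on 3 of them. Such a run is also carried by miR-7028-3p and miR-7082-3p.
miR-6929-3p: cAGGUGCUgucuucuucuuccag
miR-7036b-3p: uUCCUGGUgggccucggggucc
miR-7028-3p: cCUUCUCUucccccucggccag
miR-7082-3p: gCCCCCCUugcugucugucucc
The last 3 were detected on no feces array. Of these miR-7047-3p is 60.9% C but has no run longer than 3, miR-7053-3p has a run of 4, and miR-7092-3p is rich in U.
miR-7047-3p: uCACCCUCacccuuccuccuucc
miR-7053-3p: cUCCUGUGucuccuuccccag
miR-7092-3p: uGUUCUUUguuuuguuugccuuag

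On GRCm38.p6, miR-6937-3p lies at chr12:28679367-28679389 on the plus strand, within the span of Adi1, a gene of the methionine salvage pathway. The arm miR-7045-3p lies at chr6:125097066-125097086 on the plus strand within Chd4, which encodes a chromatin-remodelling ATPase. The arm miR-7115-3p is at chr11:70438297-70438318, plus strand, within the span of Arrb2, which encodes a beta-arrestin. On the minus strand, miR-7022-3p is at chr4:148146937-148146958 within Fbxo6, a substrate receptor of a ubiquitin ligase, and miR-6897-3p at chr1:36144252-36144272 within Uggt1, a folding sensor of the endoplasmic reticulum. The arm miR-6943-3p lies at chr13:55453150-55453171 on the plus strand within Grk6, which encodes a kinase of G-protein-coupled receptors. The arm miR-7063-3p lies at chr7:141620772-141620791 on the plus strand within Ap2a2, which encodes an adaptor subunit of clathrin-mediated endocytosis.

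Seeds were seldom shared. The 180 sequences carried 172 different seeds, and 7 seeds belonged to 2 or 3 members each (15 members in all), such as CACCCUG in miR-7018-3p, miR-7023-3p and miR-7068-3p. No seed was shared by 2 members that were detected in feces, and the 27 members with a sequence that were tested in feces had 27 different seeds.

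Before the members, the arrays as a whole: 131 to 219 miRNAs were detected per serum array, 285 to 389 per intestine array and 378 to 675 per feces array. Detection here means that 50% or more of the spots of 1 or more probes for that miRNA passed the scanner's test against background. The marker lists bear on the labels. All 6 listed miRNAs (among them miR-200c-3p and miR-192-5p) were detected on every intestine array, with a summed signal of 37800 to 65200. In feces 5 of the 6 were detected on every array (792 to 6340), and in serum 5 of the 6 on none (56.9 to 521). Of the red cell markers miR-451a, miR-486a-5p and miR-144-3p, 2 were detected on both serum arrays at 0 Gy (summed signal 4600 to 9070) and 1 on every serum array at 10 Gy (728 to 2400). The red cell list gave 111 to 359 in intestine and 8.67 to 107 in feces, where miR-451a was detected on no array. The leukocyte list (miR-142a-3p, miR-150-5p, miR-223-3p) gave 790 to 1620 in intestine, and at most 27.3 in serum and 121 in feces. The muscle and mesenchyme list (miR-143-3p, miR-145a-5p, miR-1a-3p, miR-133a-3p) gave 1990 to 4030 in intestine, and at most 166 in serum and 102 in feces, and the liver miRNA miR-122-5p was detected on no array. In bulk samples fewer cells of a type and less RNA per cell cannot be told apart. Each sample type was hybridised on a slide of its own, and within a slide the doses lay in different columns, so type and slide, and dose and column, cannot be told apart.

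The members were detected mainly in feces. In unirradiated intestine no member was detected on any of 4 arrays, and at 10 Gy the 4 arrays showed 0, 1, 2 and 0. Every serum array showed 2. The feces arrays showed 19, 15, 48 and 43 members at 0 Gy (mean 31.25 ± 16.7 SD, n = 4) and 36, 26, 33 and 28 at 10 Gy (30.75 ± 4.57 SD, n = 4). The 0 Gy arrays thus lay on both sides of the 10 Gy arrays: replicates 1 and 2, which shared a row of the slide, were lowest and replicates 3 and 4, in the other row, were highest. The number of miRNAs of any kind detected on these 4 arrays followed the same order, with 468, 378, 675 and 585.

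**Figure D1:**
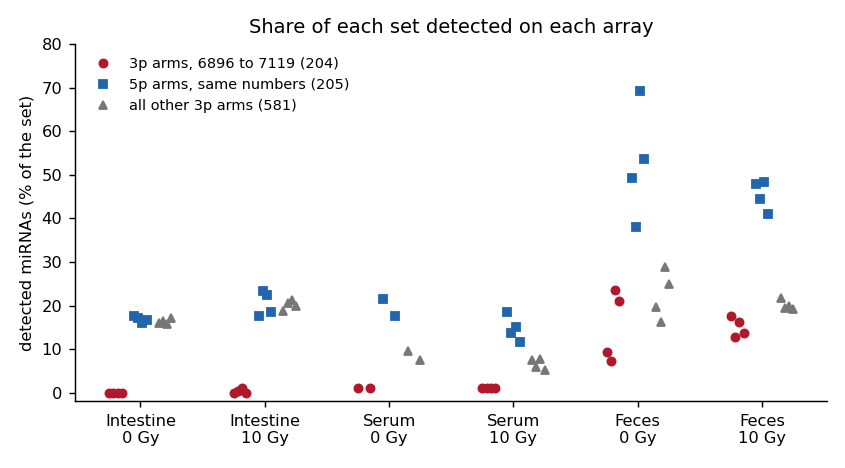
Share of each set of miRNAs detected on each array, in percent of the set (vertical axis), by sample type and dose. Each symbol is 1 array: circles are the 204 members, squares the 205 5p arms of the same number range and triangles the 581 other 3p arms. Members stay at or below 0.98% in intestine and serum and reach 7.35% to 23.5% in feces.

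In all, 49 members (24%) were detected on at least 1 of 8 feces arrays, 12 of them on all 8, and 155 were detected on no array of any kind. The 5p arms of the same number range were seen more widely: 144 of 205 (70.2%) on at least 1 feces array, 52 (25.4%) in intestine and 44 (21.5%) in serum. Of the 581 other 3p arms, 187 (32.2%) were detected in feces, 136 (23.4%) in intestine and 59 (10.2%) in serum. These are shares of named sets, with no test. Of the 203 hairpins with both arms on the array, 31 showed both arms in feces, 18 the 3p arm only, 112 the 5p arm only and 42 neither. In intestine 50 showed the 5p arm only and 2 the 3p arm only.

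Of the 49 members seen in feces, 44 were seen in no other sample type. None appeared at 10 Gy only. There were 10 that appeared at 0 Gy only, all 10 of them on replicates 3 or 4 alone. At 10 Gy 16 were detected on more arrays than at 0 Gy, 18 on fewer and 15 on as many.

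The members seen in feces differed from the unseen ones in a sequence feature that their selection did not use. A run of 4 or more C (CCCC, searched on the RNA strand only, overlapping matches counted once) occurred in 49 of the 180 members with a sequence (27.2%) and in 7.46% of the 1608 mature miRNAs of the array with one. Of the 49 members with such a run, 37 (75.5%) were detected on at least 1 feces array and 25 (51%) on 4 or more. Of the 131 without it, 8 (6.11%) were detected and 2 (1.53%) on 4 or more arrays. By the longest run, those detected were 5 of 68 members whose longest run was 2 or fewer, 3 of 63 with a run of 3, 27 of 39 with a run of 4 and 10 of 10 with 5 or more. The share of C also differed: it was 47.3% of all bases in the 27 tested in feces and 38.5% in the 135 undetected members. In the 18 with a sequence detected on 1 to 3 feces arrays it was 41.6%. The ranges overlapped, with 12.5% to 60.9% C in the undetected members and 30.4% to 66.7% in those tested. The part of the run and of the share of C in detection was not tested.

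The same feature went with detection outside the members. Of the 36 other 3p arms with a run of 4 or more C, 28 (77.8%) were detected in feces, against 130 of 459 (28.3%) without one. Over all other miRNAs of the array the counts were 53 of 71 (74.6%) and 523 of 1357 (38.5%). The feature was noticed in these data and then counted in the same data, and a match is a description of the sequence.

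**Figure D2:**
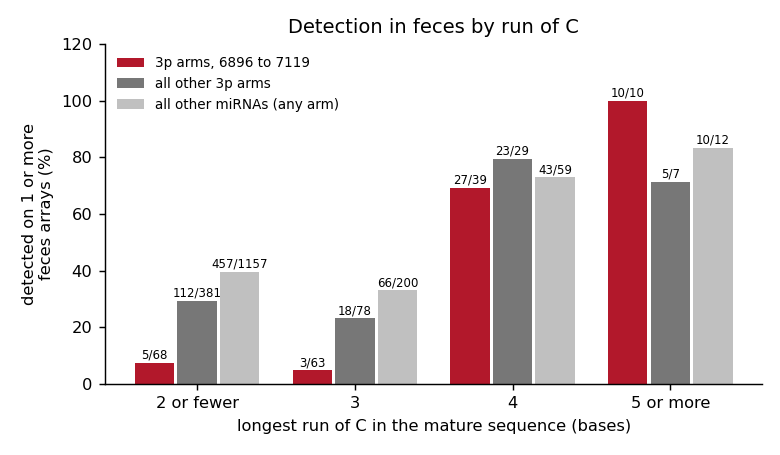
Share of miRNAs detected on at least 1 of 8 feces arrays (vertical axis, percent) by the longest run of C in the mature sequence (horizontal axis, bases). Bars are the members, all other 3p arms and all other miRNAs of any arm, the last including the second; the numbers are detected over all with a sequence. Members go from 5 of 68 at 2 or fewer to 10 of 10 at 5 or more.

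The exceptions can be named. The 8 members detected without a run of 4 C were miR-6929-3p and miR-7036b-3p, each on 7 feces arrays, and miR-6900-3p, miR-6940-3p, miR-6977-3p, miR-7004-3p, miR-7033-3p and miR-7037-3p, each on 1 or 2. The 12 members with a run of 4 that were detected on no feces array include miR-7053-3p, printed above, miR-7044-3p and miR-6909-3p.

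Signals are given here as the processed signal summed over the probes of a miRNA, without scaling. In feces miR-6937-3p gave 122, 92.5, 427 and 395 on the 4 arrays at 0 Gy and 265, 206, 205 and 199 at 10 Gy. The values of miR-7045-3p were 97.5, 75.9, 352 and 323 at 0 Gy and 211, 165, 168 and 167 at 10 Gy. Both had low values on replicates 1 and 2 at 0 Gy and high ones on replicates 3 and 4, with all 10 Gy arrays in between, so that the doses overlapped.

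In other members too replicates 1 and 2 at 0 Gy were lowest, replicates 3 and 4 highest and the 10 Gy arrays in between. The arm miR-7022-3p gave 74.7, 60.7, 229 and 222 at 0 Gy and 148, 116, 118 and 114 at 10 Gy. For miR-6897-3p the values were 47.7, 37.0, 156 and 149, then 97.3, 75.2, 74.9 and 71.2. For miR-6925-3p, detected on all 8 arrays, they were 16.2, 12.1, 51.5 and 48.7, then 32.6, 25.3, 27.1 and 25.5. In each of the 3 the arrays stood in nearly the same proportions to each other, although probe signals of different miRNAs cannot be compared in level.

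To describe this likeness, the log2 profile of each miRNA over the 8 feces arrays was set against the median profile of the 30 members detected on 4 or more feces arrays (leaving out the member itself). The difference between both had a standard deviation (SD) below 0.25 in 24 of the 30 members, with 0.0324 to 0.198 and a median of 0.0799. Among the 461 other miRNAs tested in feces, 58 (12.6%) lay below that limit, with a median SD of 0.767. Of the 101 5p arms 5 (4.95%) did. The profile was made from the members, so closeness to it was favoured in them over the other miRNAs, and the shares are descriptions. In the 24 members the signal of replicate 3 at 0 Gy was 2.81 to 5.37 times that of replicate 2. The comparison does not depend on scaling, which shifts all miRNAs of an array alike. All miRNAs of an array share its labelling, hybridisation and scan.

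This common profile also went with the run of C. All 22 of the 24 members that have a sequence hold a run of 4 or more. Such a run was also held by 3 of the 5 tested members without the profile that have a sequence. In all, 25 of the 27 tested members with a sequence hold it, so the members alone say little on this. Among the other miRNAs tested in feces, 27 of 40 (67.5%) with such a run followed the profile, against 24 of 357 (6.72%) without one. Followers outside the members included miR-3085-3p, miR-1249-3p and miR-296-5p. The median signal of negative control spots was 2.14 to 2.79 on the 8 feces arrays and did not rise on replicates 3 and 4 at 0 Gy, where it was 2.14 and 2.36. On the same arrays the 75th percentile used for scaling was 838.2, 528.8, 2627 and 1668 at 0 Gy and 852.9, 771.4, 791 and 620.5 at 10 Gy, high on the same replicates. The part of total signal, RNA input or hybridisation in the common profile was not tested.

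**Figure D3:**
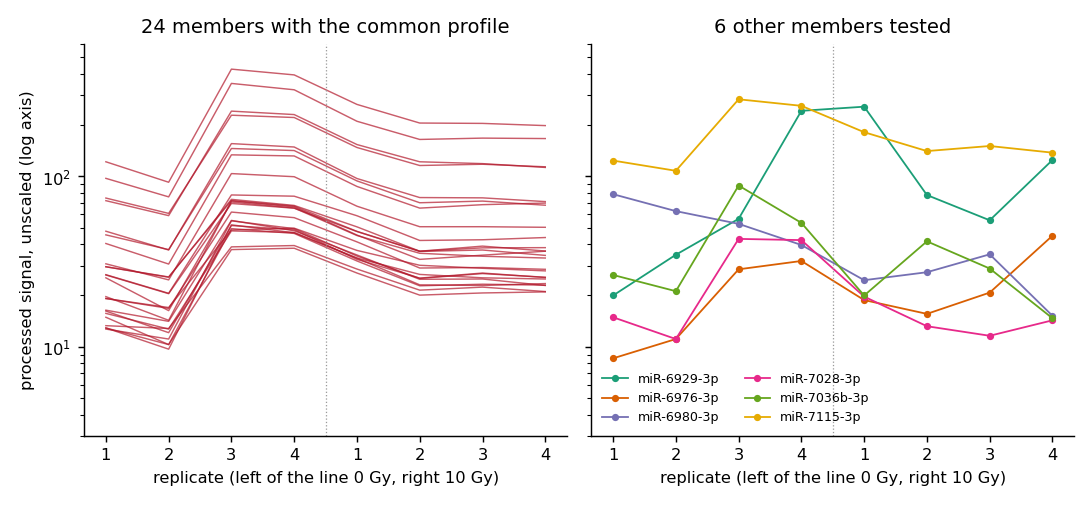
Processed signal without scaling (vertical log axis) of the 30 members tested in feces, on each of the 8 feces arrays (horizontal axis, replicates 1 to 4 at 0 Gy left of the dotted line and at 10 Gy right of it). Left, the 24 members with an SD below 0.25 from the common profile; right, the 6 others by name. Each line is 1 miRNA and joins arrays only to guide the eye; the 24 lines run nearly parallel.

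The 6 other tested members were singled out after their values were seen. The arm miR-7115-3p, with an SD of 0.252, lay just outside the limit, and its 10 Gy arrays also lay between the low and the high pair at 0 Gy (124, 108, 284 and 260, then 182, 141, 151 and 138). The profile of miR-6929-3p, which has no run of C beyond 2, was its own: 20.0, 34.7, 56.4 and 243 at 0 Gy and 257, 77.8, 55.3 and 125 at 10 Gy. Its highest 2 arrays were 1 of each dose.

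For miR-6980-3p the values were 78.7, 62.6, 52.7 and 39.6 at 0 Gy and 24.6, 27.4, 34.9 and 15.2 at 10 Gy. Here all 4 arrays at 0 Gy lay above all 4 at 10 Gy before scaling, unlike the 24 followers. In miR-7036b-3p they were 26.4, 21.2, 88.5 and 53.4, then 20.0, 41.6, 28.8 and 14.7, with overlap of the doses. The arms miR-7028-3p (11.1 to 43.0 at 0 Gy, 11.6 to 19.7 at 10 Gy) and miR-6976-3p (8.55 to 31.9 and 15.6 to 44.9) also overlapped between doses.

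The dose comparison in feces asked whether levels at 10 Gy differed from those at 0 Gy after each array was scaled by its 75th percentile. Of the 30 members that could be tested, none passed an adjusted p of 0.05 in limma (Benjamini-Hochberg over all 491 miRNAs), where 7.54% of all tested miRNAs passed. At an unadjusted p below 0.05 there were 24 of the 30, where 39.1% of all tested were. The change was above 0 in 27 of 30, where 56% of all tested were, and the median change of the 30 was 0.683 on the log2 scale against 0.155 over all tested. The values of 22 members at 10 Gy lay above all values at 0 Gy after scaling, where 29.1% of all tested miRNAs did not overlap in either direction. These 22 had changes of 0.57 to 0.80 and adjusted p-values of 0.074 to 0.095. As 24 of the 30 members shared the common profile, these counts are not counts of independent members.

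The smallest p-values belonged to miR-7063-3p, miR-7084-3p, miR-6968-3p, miR-6925-3p, miR-7054-3p and miR-7052-3p, each with an adjusted p of 0.074 in limma. The signal of miR-7063-3p was 26.5, 20.6, 77.9 and 76.6 at 0 Gy and 58.8, 42.1, 42.5 and 43.8 at 10 Gy before scaling. After scaling it was 0.77 ± 0.24 (SE, n = 4 and 4) higher at 10 Gy on the log2 scale. The arm miR-7084-3p changed by 0.80 ± 0.25 (SE), with 12.7, 11.1, 54.9 and 49.4 at 0 Gy and 34.1, 25.2, 26.9 and 25.6 at 10 Gy before scaling. The other 4 had changes of 0.70 to 0.76. At 0 Gy miR-7084-3p, miR-6968-3p, miR-7054-3p and miR-7052-3p were each detected on only 2 of 4 arrays, and miR-7063-3p on 3. The rest of their 0 Gy values lay below detection. Of the 2 probes of miR-7084-3p, 1 was detected on 4 or more feces arrays, and the unscaled changes of both were -0.53 and 0.13. No member of the 6 passed the test, and their groups overlapped before scaling and not after it.

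Among the members on all 8 feces arrays the change was 0.70 ± 0.23 (SE) in miR-6937-3p, 0.70 ± 0.24 in miR-7045-3p, 0.65 ± 0.23 in miR-7022-3p, 0.63 ± 0.23 in miR-6897-3p and 0.61 ± 0.23 in miR-7117-3p. The change was 0.67 ± 0.23 (SE) in miR-7046-3p, 0.72 ± 0.24 in miR-6982-3p and 0.68 ± 0.24 in miR-7069-3p. It was smaller in miR-6943-3p (0.53 ± 0.24 SE, adjusted p = 0.15 in limma), miR-6934-3p (0.50 ± 0.24, adjusted p = 0.16) and miR-7115-3p (0.43 ± 0.25, adjusted p = 0.24). Wider standard errors went with miR-6929-3p, at 1.61 ± 0.68 (SE, adjusted p = 0.11), and miR-6976-3p, at 1.06 ± 0.45. The arm miR-6980-3p was 0.56 ± 0.59 (SE) lower, with an adjusted p of 0.50.

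With unscaled signals the members' median change was 0.0361 while that of all tested miRNAs was -0.493. In 1 fit of all groups, which also changed the scale and the floor, it was 0.0986 against 0.0758 with 6 members called higher, and 11 of the 30 lay at the floor on all 8 feces arrays. A single array also decides the call, since without replicate 4 at 0 Gy 23 of 30 members passed, all higher, and with each other array left out 0 passed. The share of all tested miRNAs that passed in these fits is not given here, so the counts are not read as particular to the members. The median change was 0.725 over the 26 members tested within slide row 1 (replicates 1 and 2). It was 0.641 over the 45 members tested within row 2 (replicates 3 and 4). These are not the same members, and each row holds 2 arrays a dose.

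Changes above 0 were also counted outside the members. The 40 other miRNAs tested in feces with a run of 4 or more C had a median change of 0.667, with 36 of 40 above 0. The 25 tested members with such a run had a median of 0.681, with 24 of 25 above 0. The 357 other tested miRNAs without it had a median of -0.0044, with 178 above 0. The 24 members with the common profile had changes of 0.50 to 0.80, and the 6 others had -0.56 to 1.61.

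**Figure D4:**
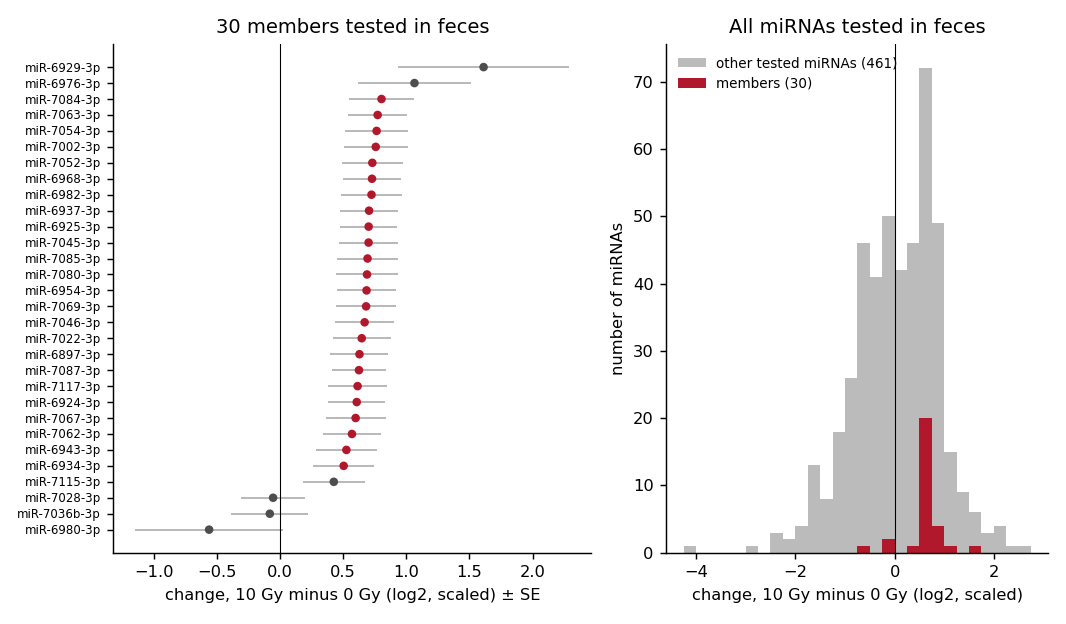
Left, change in feces from 0 to 10 Gy (log2, after scaling) of the 30 tested members, with the standard error of the limma fit as bars; red points are the 24 members with the common profile. Right, number of miRNAs by the same change for the 461 other tested miRNAs (gray) and, drawn in front, the 30 members (red); 27 of the 30 lie above 0.

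The opposite arms of the same hairpins were set side by side, with no test of the difference. Both arms of 15 hairpins were tested in feces. The median change was 0.689 for the 3p arms and -0.0728 for the 5p arms, and neither arm of any of the 15 passed the test. Both arms lay above 0 in 6 hairpins, the 3p arm above and the 5p arm below in 7. For miR-6937 the changes were 0.70 (3p) and 1.05 (5p), and for miR-6982 they were 0.72 and -1.04. Over all 101 5p arms of the number range tested in feces, 1 rose, 7 fell and 93 did not pass, where 7.54% of all tested miRNAs passed.

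Of the 8 arms of the established short-intron miRNAs miR-877, miR-1224 and miR-3102 on the array, 5 were tested in feces and none passed. Those nearest the threshold were miR-1224-5p (0.79 ± 0.22 SE, adjusted p = 0.066 in limma) and miR-877-5p (-1.27 ± 0.36, adjusted p = 0.066). In intestine 4 were tested and 2 rose, miR-877-5p by 2.67 ± 0.20 (SE, adjusted p = 1.5e-06) and miR-3102-5p by 1.70 ± 0.21 (adjusted p = 6.7e-05). Of all tested miRNAs, 41.8% passed in intestine and 7.54% in feces.

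In serum 3 members were detected, all of them with a run of at least 4 C. The arm miR-7022-3p was detected on all 6 serum arrays, with a signal of 36.6 and 31.2 at 0 Gy and 29.5, 25.8, 28.5 and 24.9 at 10 Gy. The arm miR-6943-3p gave 22 and 24.4 at 0 Gy, of which the second was detected, and 21.9, 20.5, 22.5 and 21.3 at 10 Gy, all detected. The arm miR-7115-3p was detected on 1 array at 0 Gy, at 24.6. The detected signals of miR-6943-3p and miR-7115-3p overlapped with or lay close to the undetected ones, and the doses overlapped in miR-6943-3p.

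Neither of the 2 members that could be tested in serum passed in limma, where 4.66% of 193 tested miRNAs did, and neither was below an unadjusted p of 0.05. After scaling miR-7022-3p changed by 0.46 ± 0.40 (SE, n = 2 and 4, adjusted p = 0.60) and miR-6943-3p by 0.67 ± 0.48 (adjusted p = 0.54). Their doses overlapped, where 30.1% of all tested miRNAs did not. Without scaling both were lower at 10 Gy, by -0.318 and -0.106, and without replicate 1 at 0 Gy they changed by -0.0394 and -0.0173 with scaling.

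**Figure D5:**
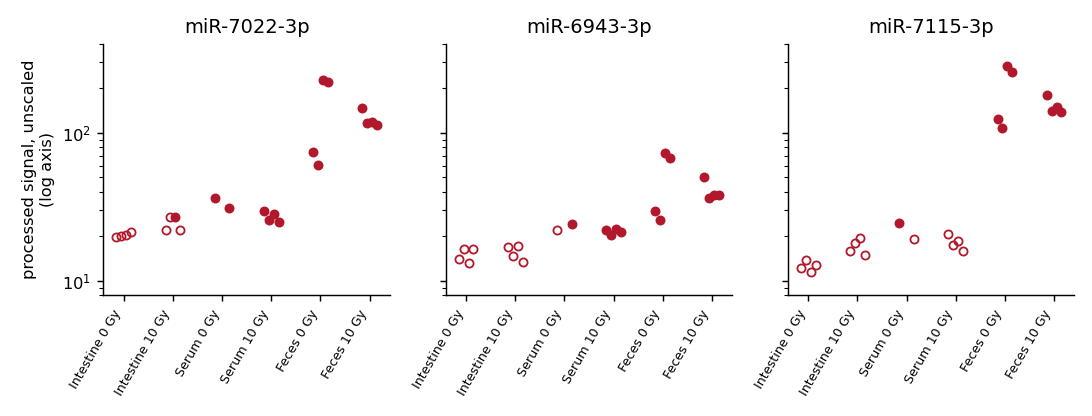
Processed signal without scaling (vertical log axis) of the 3 members detected in serum, on all 22 arrays by sample type and dose. Each circle is 1 array, filled where the miRNA was detected and open where it was not; miR-7022-3p is filled on all 6 serum arrays, all 8 feces arrays and 1 intestine array.

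No member could be tested for dose in intestine, where 41.8% of 335 tested miRNAs passed. Detection was limited to single arrays at 10 Gy. These were miR-7082-3p on replicate 2 (signal 115, against 9.95, 22.2 and 28.6 on the other 10 Gy arrays and 0.0546 to 11.2 at 0 Gy), and miR-6976-3p and miR-7022-3p on replicate 3 (31.6 and 27). Of the 38 5p arms tested in intestine, 10 rose and 4 fell.

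Sample types were compared at 0 Gy on values scaled by the 81 miRNAs detected on all 22 arrays. In feces against intestine 2 of 26 tested members were called higher (miR-6937-3p and miR-7045-3p) and 5 lower (miR-6943-3p, miR-7022-3p, miR-6924-3p, miR-6934-3p and miR-7085-3p), where 74.7% of 581 miRNAs were called. All 7 were below detection on every intestine array, so the level in intestine is only a bound. Of the 5 called lower, all but miR-7022-3p also lay at the floor of the scaled values on every unirradiated feces array, so those 4 differences are not measured changes. For miR-7022-3p the intestine level is an upper bound, so its call as lower in feces is not a measured change either. Its unscaled mean signal was 147 in unirradiated feces against 20.5 in unirradiated intestine. On the scaled values no bound reached 1-fold in feces over intestine at 0 Gy, and at 10 Gy 5 of 23 members did, with miR-6937-3p at least 2.08-fold and miR-7045-3p at least 1.74-fold higher in feces. Without scaling all 14 members detected on every feces array at 0 Gy were higher there than in intestine, from at least 1.7-fold to at least 7.54-fold (miR-6937-3p, with a mean signal of 259 in feces). All 26 tested members were detected on every array of a feces group, and none on every array of an intestine group. The filter itself therefore favoured a higher unscaled signal in feces. The direction thus turned with the scaling: without scaling 26 of 26 were called higher in feces and with normexp background correction 26 of 26 lower. The scaling value averaged 7663 in unirradiated feces and 562.7 in unirradiated intestine.

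In serum against intestine 10 of 26 members were called higher and 0 lower, where 58.7% of all were called. The count was 0 with normexp, 1 without scaling, and 2 without serum 0 Gy replicate 2 against 19 without replicate 1. Of the 10, 8 were detected on no array of either group, so no fold is given for them. They include miR-6937-3p, miR-7045-3p, miR-6897-3p, miR-7063-3p, miR-7117-3p and miR-6982-3p. The arm miR-7022-3p was at least 1.42-fold higher in serum after scaling (adjusted p = 0.048 in limma), with a mean signal of 33.9 against 20.5 in intestine. For miR-7115-3p 1 of 2 serum arrays was detected. In feces against serum 12 of 26 were called lower and 0 higher, where 49.6% of all were, and without scaling all 26 were called higher. The filter favoured feces here too, since only miR-7022-3p and miR-6943-3p were detected on every array of a serum group. Of the 12, 8 lay at the floor of the scaled values on all 4 feces arrays, miR-6943-3p among them, and 10 were detected on no serum array, so neither their size nor their p is a measured change. The arm miR-7022-3p, detected on all arrays of both groups, was lower in feces after scaling (-1.58 ± 0.34 SE, adjusted p = 0.00065 in limma). Its unscaled mean signal was 147 in unirradiated feces and 33.9 in unirradiated serum, so the direction turned with the scaling. The scaling value averaged 7663 in these feces arrays and 566.4 in the 2 serum arrays.

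The dose effect in feces was tested against that in intestine in the same fit of all arrays. Only miR-7022-3p differed, with a difference of 1.2 ± 0.39 (SE, adjusted p = 0.046 in limma), where 17% of 581 miRNAs passed. The arm was detected on all 8 feces arrays but on 1 of 8 intestine arrays, where its signal was 19.7 to 21.4 at 0 Gy and 21.9 to 27 at 10 Gy. Without scaling the difference was -0.253 with an adjusted p of 0.72, and leaving out single arrays ended the call for 12 of the 16 arrays of both types.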

How the data were processed

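Probe intensity was read by the submitters with Agilent Feature Extraction 11.5, per the submitters' processing notes, and the deposited scanner files give a background-subtracted processed intensity per spot. Per the file headers other columns flag spots that are well above background, saturated or outlying. Values here are the mean over the spots of a probe without outlier flags, summed over the probes of a miRNA, divided by the 75th percentile of the array over miRNAs detected on all arrays compared, floored and taken as log2. A miRNA was tested when detected on at least 4 arrays of intestine or feces, or 2 of serum for dose, and on every array of at least 1 group for types. The tests were limma 3.58.1 in R 4.3.3 with Benjamini-Hochberg adjustment over all tested miRNAs at 0.05, within a sample type for dose, and in 1 fit of all groups for types and for the difference of dose effects. The limma fit of the dose comparisons was also run on simulated log2 values with known changes. That run did not cover detection, scaling, the floor or the comparisons of types. The deposited value table of the series held the same processed intensity, on a linear scale with no centring, at 58594 of 58594 spots of each array, with column medians of -1.55 to 2.1, and was not used further. Alternatives were normexp (offset 50), quantile, no scaling, other filters, the mean over probes, the replicate block, slide row and each array left out. The number of arrays limits the precision. Sequences and positions are from RefSeq (GRCm38.p6).

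The members and lists were chosen with earlier results of these data known. The limit of 0.25 for the common profile and the run of C were chosen after seeing the data. The members named with values were, per dose comparison, those past the threshold or else the 6 with the smallest unadjusted p, up to 12 detected on every array of a sample type, and, per comparison of types, up to 8 called in each direction. Others named were chosen after their values were seen.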

Additional observations from a re-analysis of the deposited data

Results flagged for a closer look

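The dose effect on miR-7022-3p differed between feces and intestine by 1.2 on the log2 scale, in a test of the difference itself in limma (adjusted p = 0.046). With single arrays left out it was 0.958 to 1.37, with adjusted p-values of 0.017 to 0.098. The arm was detected on only 1 of 8 intestine arrays, and without scaling the difference was -0.253. A search of 42 group values of named members for a sample far from the others found 0. These values do not cover every group of every member named here.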

How the results depend on the processing

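The members called in feces for dose (0) became 163 with no filter (35 higher and 128 lower), most of them at the floor, where the variance model of limma is unreliable. The count was 10 with the mean over probes and 6 in 1 fit of all groups, all higher. Within slide row 1 the count was 1, which was lower, and with single arrays left out 0 to 23, all higher. In serum neither of the 2 tested members was called in any leave-out, and in intestine no member was tested. For feces against intestine the count (7) became 26 with normexp and without scaling, 13 after quantile scaling, 12 when every miRNA entered the percentile, 0 with detection on every array or the mean over probes, 135 with no filter and 3 to 8 over leave-outs. For serum against intestine (10) it became 0 with normexp or detection on every array, 23 with quantile or the percentile over all, 1 without scaling or with the mean over probes, 145 with no filter, 22 at 10 Gy, and 2 to 19 over leave-outs, the extremes being without serum 0 Gy replicates 2 and 1. For feces against serum (12) it became 26 with normexp or without scaling, 1 with detection on every array or the mean over probes, 148 with no filter, 20 at 10 Gy and 4 to 16 over leave-outs. For the difference of dose effects (1) it became 0 with normexp or detection on every array, 11 with quantile or the percentile over all, 131 with no filter, 2 with the mean over probes, 6 with the total signal and 0 to 7 over leave-outs. The causes were not tested, and the shares of all tested miRNAs called under these settings are not given here.

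The replicate block gave 4 calls for that difference and 0 for dose in feces, 7, 9 and 12 for the types. Deviations of same-numbered samples correlated at -0.43, -0.22, 0.4 and 0.26 in feces, -0.56, -0.02, 0.32 and 0.44 in intestine, and 0.28 and 0.44 in serum, where both samples matched their own number best but there are only 2 pairs. The samples were therefore treated as sharing only a number.

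Directions turned for single members. In serum without scaling the changes were -0.106 (miR-6943-3p) and -0.318 (miR-7022-3p), and, with serum 0 Gy replicates left out in turn, -0.0173 to 1.35 (miR-6943-3p) and -0.0394 to 0.948 (miR-7022-3p). In feces without scaling they were -0.222 (miR-7115-3p), -0.000278 (miR-7022-3p), -0.0183 (miR-6897-3p), -0.0333 (miR-7117-3p), -0.122 (miR-6943-3p) and -0.143 (miR-6934-3p). With normexp miR-6980-3p changed by 0.267, miR-7028-3p by 0.408 and miR-7036b-3p by 0.372. The value of miR-7028-3p was 0.0356 with the mean over probes, 0.159 with the total signal, 0.0485 within row 1 and -0.148 to 0.0828 over leave-outs. That of miR-7036b-3p was 0.0758 in 1 fit of all groups, 0.011 within row 1 and -0.309 to 0.105 over leave-outs, and that of miR-6980-3p was 0.669 within row 2. The difference for miR-7022-3p was -0.253 without scaling. The total signal and the slide rows were chosen after seeing the data.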
